A study of Mus musculus with 12 samples.

Results

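The genes described here encode the proteins of the cytosolic ribosome in mouse. They were chosen by symbol: Rpl or Rps followed by a digit, or Rplp0, Rplp1, Rplp2 or Rpsa, without pseudogenes marked -ps and without the Rps6k kinases. Only probe sets that carry exactly 1 gene symbol were used. This gave 48 of the 12393 genes with such a probe set, and all 48 were among the 10674 genes tested. Of the 48, 20 encode proteins of the small subunit, 22 encode proteins of the large subunit and 6 are paralogs or related genes (Rpl39l, Rpl22l1, Rps4l, Rpl7l1, Rps27l and Rpl3l). In RefSeq 47 are protein coding, while Rps4l is listed as a transcribed pseudogene, so its signal may not stand for a protein. Another 30 ribosomal protein genes, Rplp1 among them, are named only on probe sets with several symbols and are not among the 48.

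Expression was measured in mouse embryonic fibroblasts, which the labels describe as plated from embryos, grown in medium with 10% fetal bovine serum and then moved to a medium with 15% serum and basic fibroblast growth factor at 40 ng/ml. The cells were given SGCF or 6TCF, code names of 2 chemical combinations. What they contain is not stated in the labels used here. There are 12 arrays in 6 groups of 2: SGCF at days 0, 5 and 10, and 6TCF at days 0, 5 and 10. No group is labelled as untreated at day 5 or 10, so a change from day 0 also holds time in culture and the change of medium. The labels do not say whether the 2 arrays of a group come from separate embryos or cultures, so p-values may measure only technical spread between these arrays. In RNA from a mixed culture, fewer cells of a type and less RNA per cell cannot be told apart.

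A cytosolic ribosome is built from ribosomal RNA and a set of proteins, most of them present in a single copy per particle, so their genes are usually expressed together and at high levels. Their mRNAs start with a run of pyrimidines, the terminal oligopyrimidine tract, through which mTOR signalling and the protein Larp1 control their translation, and much of their regulation is therefore not seen in mRNA levels. Several subunit genes have paralogs with narrower expression: in mouse, Rpl39l is known from male germ cells and Rpl3l from striated muscle.

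The promoters below are shown because members with a called change and members with none both carry a run of pyrimidines near the annotated start. Each is 75 bases long, from 60 bases before to 15 bases from the annotated transcription start, read 5′ to 3′ on the gene's strand from RefSeq (GRCm38.p6), and capitals mark the longest run of C and T inside the stretch from 10 bases before to 15 bases after the start. A run that goes on upstream of that stretch, as in Rpl7a, is marked only inside it. Rpl39l, Rpl22l1, Rps6, Rpl12 and Rps27 are genes with a called change and Rplp2, Rpl35 and Rpl7a are genes with none.
Rpl39l (chr16:10170168-10170242, + strand): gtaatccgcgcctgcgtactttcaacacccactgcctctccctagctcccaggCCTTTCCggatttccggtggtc
Rpl22l1 (chr3:28805448-28805522, + strand): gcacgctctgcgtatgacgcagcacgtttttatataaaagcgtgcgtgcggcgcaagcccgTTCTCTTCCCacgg
Rps6 (chr4:86857353-86857427, - strand): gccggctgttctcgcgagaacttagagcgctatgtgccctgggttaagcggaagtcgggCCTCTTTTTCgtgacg
Rpl12 (chr2:32961652-32961726, + strand): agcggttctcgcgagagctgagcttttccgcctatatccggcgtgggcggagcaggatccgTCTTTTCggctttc
Rps27 (chr3:90213634-90213708, - strand): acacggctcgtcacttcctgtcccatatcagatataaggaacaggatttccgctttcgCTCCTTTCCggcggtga
Rplp2 (chr7:141447591-141447665, + strand): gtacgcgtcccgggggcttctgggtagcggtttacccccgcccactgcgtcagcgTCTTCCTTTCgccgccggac
Rpl35 (chr2:39005117-39005191, - strand): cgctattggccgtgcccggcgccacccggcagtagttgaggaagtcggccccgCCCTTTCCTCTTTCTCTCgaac
Rpl7a (chr2:26910747-26910821, + strand): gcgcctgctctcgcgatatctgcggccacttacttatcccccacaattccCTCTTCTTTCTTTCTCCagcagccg

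RefSeq promoter windows were found for 42 of the 48 genes, 50 windows in all because some genes have several starts. A run of at least 7 pyrimidines inside that stretch, counting only bases within it, was present in 22 of the 50 windows (44.0%), against 15.2% of all 32851 windows of the same length. The motif CCGGAA, searched on both strands in the 250 bases before the start and known as the core of ETS factor sites, was present in 22 windows (44.0%), against 12.03% of all windows. These are descriptions of letters, not of binding, and no match says nothing about a factor.

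The deposited values are linear intensities per probe set. Array medians were 60.9 to 86.2 in the SGCF arm and 102.4 to 142 in the 6TCF arm, so the arrays were brought to a common scale by quantile normalization, and all levels and changes are on the log2(normalized intensity + 16) scale, which understates changes of dim probe sets. Array brightness follows the arm, so where SGCF is set against 6TCF, the arm and a batch of array processing cannot be told apart. Correlations were 0.985 to 0.996 between the replicates of a group and 0.924 to 0.983 between groups. The excess of the 3′ over the 5′ actin probe set in log2 units, a sign of RNA quality, was 0.27 to 0.38, 0.41 to 0.47 and 0.45 to 0.46 at days 0, 5 and 10 of SGCF, and 0.29 to 0.38, 0.74 to 0.85 and 1.01 on both arrays at days 0, 5 and 10 of 6TCF. Its part in the results was not tested.
The day 0 arrays of the arms were not alike: 17.1% of all genes were called between them. At day 0, 15 of the 18 macrophage markers (such as Csf1r, Cd68 and C1qa) and 7 of 22 cell cycle markers were higher in SGCF and none of either list was lower. The summed normalized signal of the macrophage markers was 8642 and 9737 on the SGCF day 0 arrays, against 4152 and 4019 on the 6TCF day 0 arrays. It was 991 to 1214 at day 5 and 912 to 1010 at day 10 of SGCF, and 1284 to 1416 at day 5 and 2181 to 2336 at day 10 of 6TCF. Of the 16 fibroblast markers, including Col1a1, Thy1 and Pdgfra, all were measured and passed the filter on low values. At day 10 against day 0, 8 of them were higher and 3 lower in SGCF, where 38.6% of all genes were called. In 6TCF 7 were higher and 7 lower, where 43.1% of all genes were called. Lum, a proteoglycan of the fibroblast matrix, had the largest rise, by 3.55 in SGCF and by 5.22 in 6TCF on the log2 scale. Dcn came next with 2.54 and 3.33. The largest called falls were those of S100a4 (-1.52) and Col1a1 (-0.90) in SGCF. In 6TCF they were those of Pdgfrb (-1.61) and Fn1 (-1.60). The part of these marker levels in the results below was not tested.

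On the quantile-normalized scale few of the subunit genes were called in either time course. Calls were made with limma at an adjusted p under 0.05 (Benjamini-Hochberg over all genes tested). None of the 42 subunit genes was called at day 5 against day 0 in either arm. At an unadjusted p under 0.05 there were 3 in SGCF and 1 in 6TCF, against 37% and 37.6% of all genes. By day 10, 1 subunit gene was higher and 1 lower in SGCF, and 3 were higher and none lower in 6TCF.
Counting the 6 paralogs as well, 1 of 48 genes was higher and none lower at day 5 of SGCF, where 25.4% of all genes were called in either direction. At day 10 of SGCF 1 was higher and 2 were lower, against 38.6% of all genes called. In 6TCF 1 was higher and 1 lower at day 5 (27.6% of all genes called), and 6 were higher and none lower at day 10 (43.1% of all genes called, 23.2% higher). Between days 5 and 10, 1 gene was lower in SGCF (21.5% of all genes called) and 1 was higher in 6TCF (15.6%). Each of these shares of members lies below the share of all genes. In all, 39 of the 48 genes were called in none of the 9 comparisons. The share of all genes called in none of them was not computed. This count, and the counts below of genes called in some comparison, therefore have no background beside them. The counts in SGCF depend on the scaling of the arrays. Under median scaling 10 genes were called at day 5, all 10 of them higher. Under cyclic loess 11 were called at day 10, 9 of them higher and 2 lower. Shares of all genes called under these scalings are not given here, so these counts cannot be set beside a background.

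**Figure D1:**
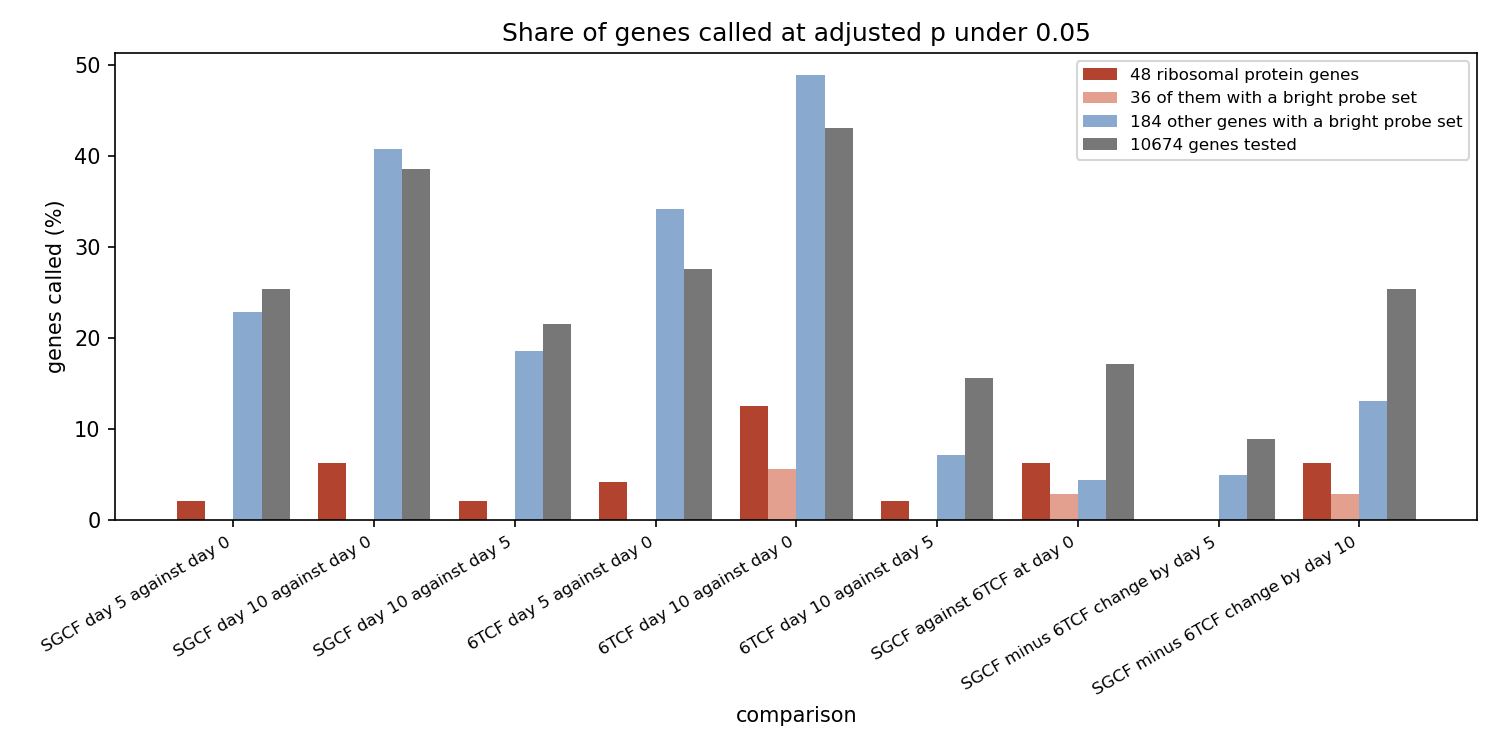
Percent of genes called at an adjusted p under 0.05 (vertical axis) in each of the 9 comparisons (horizontal axis), for the 48 ribosomal protein genes, the 36 of them with a bright probe set, the 184 other genes with a bright probe set and all 10674 genes tested. The ribosomal protein bars stay below the bars of all genes in every comparison; for the 36 bright ones the bar is absent in 6 of 9 comparisons.

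By the brightest single-symbol probe set of each gene, the changes were small as well as rarely called. Some members have a far brighter probe set with several symbols, which was not used. Mean levels were 5.84 against 14.06 for Rpl39 and 8.42 against 13.88 for Rpl27a. The median log2 change of the 48 genes was 0.04 and 0.03 at days 5 and 10 of SGCF and 0.04 and 0.08 at days 5 and 10 of 6TCF, and the median over all genes tested was at most 0.028 away from 0 in each comparison. For the subunit genes alone, the changes at day 10 lay between -0.56 and 0.34 in SGCF and between -0.21 and 0.50 in 6TCF. The 95% confidence interval of the change lay within 1 log2 unit of 0 for 47 of the 48 genes at day 10 of SGCF and for 46 at day 10 of 6TCF, and within 0.5 for 40 and 38. A 2-fold change in the normalized signal of the probe set used thus lay outside the interval of nearly all members. It does not follow that the mRNA changed by less than 2-fold, because quantile normalization reduces a shift shared by the brightest probe sets. The median standard error over the 48 genes was 0.11, and some changes well above that size were not called either. Rps2 gave -0.26 at day 10 of SGCF (adjusted p = 0.0773, limma) and Rpl14 gave 0.39 at day 10 of 6TCF (adjusted p = 0.104). Dimmer probe sets of a gene could move more. From brightest to dimmest, those of Rpl13a changed by 0.19, 0.16, 0.49 and 0.66 by day 10 of 6TCF. The last values were called (adjusted p = 0.00513 and 0.00276, limma). Those of Rpl35 changed by 0.08, 0.09, 0.08, 0.03, -0.09 and -0.34, with none called. The part that the choice of probe set has in the small changes was not tested.
Other genes with bright probe sets were called more often, a difference that was not tested. Of the 48 genes, 36 were measured by a probe set at or above the 98th percentile of signal, a threshold chosen after seeing the data. At day 10 against day 0, 0 of these 36 were called in SGCF and 2 in 6TCF. At an unadjusted p under 0.05, 1 of the 36 passed in SGCF, against 46.8% of all genes. Of the 184 other genes with a probe set at or above the same percentile, 40.8% and 48.9% were called. Signal levels above that percentile were not matched between the 36 and the 184. The median absolute log2 change was 0.08 for the 36 and 0.26 for the 184 in SGCF, and 0.08 and 0.34 in 6TCF, with a median standard error of 0.11 for the 36 and 0.12 for the 184.

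**Figure D2:**
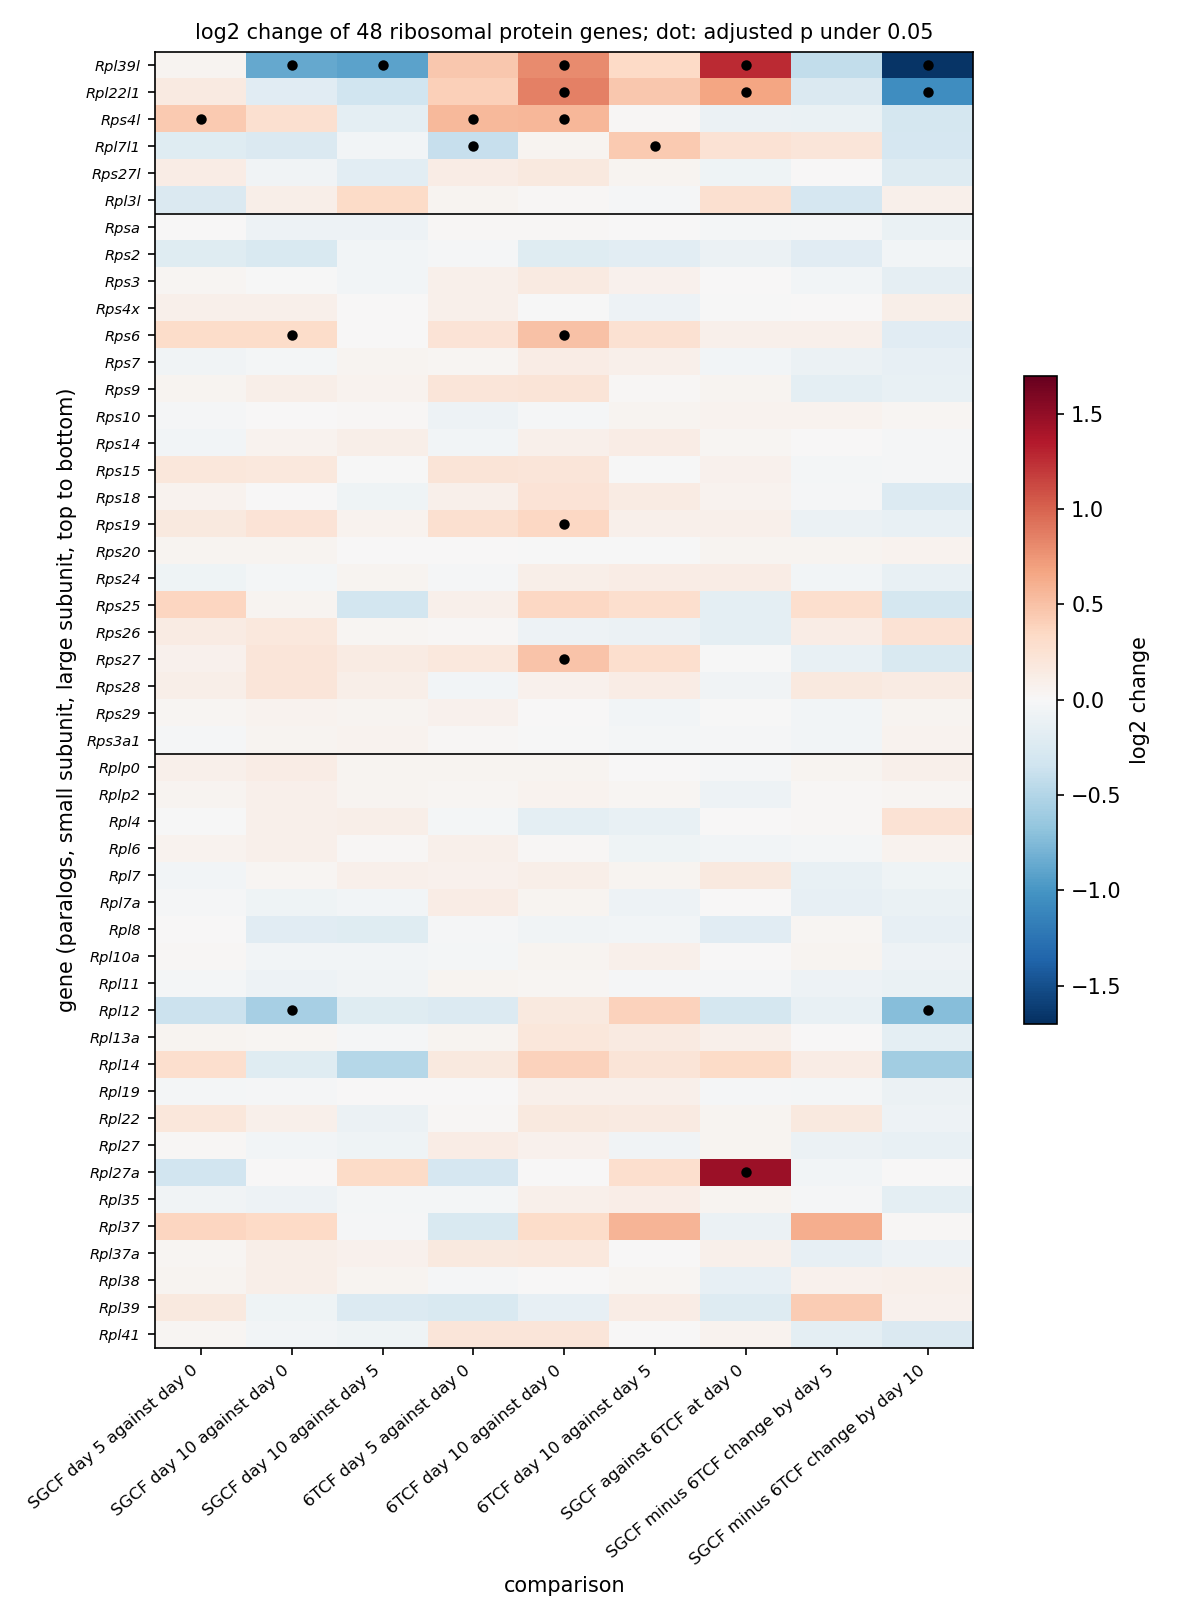
Log2 changes of the 48 genes (rows; paralogs at the top, then the small and the large subunit) in the 9 comparisons (columns), red for higher and blue for lower, with a dot where the adjusted p was under 0.05. Most rows are pale throughout; the dots lie in 9 rows, 4 of them among the paralogs.

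The stalk proteins and the laminin receptor protein were not called at day 10 in either arm on the quantile-normalized scale. Rplp0 carries the stalk to which translation factors bind. Its level was 13.92 and 13.97 at day 0, 14.01 and 14.06 at day 5 and 14.03 and 14.11 at day 10 of SGCF, and 13.95 and 13.98, 14.01 and 13.99, and 14.01 and 13.98 at days 0, 5 and 10 of 6TCF. All 12 arrays thus lie between 13.92 and 14.11. Both later days lie above day 0 on every array of both arms, by small amounts, while days 5 and 10 overlap in both arms. Rplp0 was called with other scalings: at day 5 of SGCF under median scaling (0.42, adjusted p = 0.0213, limma) and at day 10 of SGCF under cyclic loess (0.37, adjusted p = 0.0192). Rplp2, one of the acidic stalk proteins, changed by 0.09 ± 0.10 by day 10 of SGCF and by 0.06 ± 0.10 by day 10 of 6TCF (log2 change ± SE, n = 2 against 2 arrays; adjusted p = 0.531 and 0.695, limma). Rpsa, a small subunit protein also known as the laminin receptor, changed by -0.09 ± 0.10 and 0.02 ± 0.10 (adjusted p = 0.525 and 0.891). Rplp2 was called at day 5 of SGCF under median scaling (0.36, adjusted p = 0.0444). The intervals of the changes by day 10 ran from -0.14 to 0.32 for Rplp2 in SGCF and from -0.32 to 0.14 for Rpsa in SGCF.

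Of the 6 paralogs, 4 were called in some comparison. The calls of Rpl39l, Rpl22l1 and Rps4l each rest on a single probe set, and what it binds was not tested. Rpl39l is a paralog of Rpl39, which lines the exit tunnel of the large subunit. It had 10.04 and 10.60 at day 0, 10.48 and 10.24 at day 5, and 9.43 and 9.47 at day 10 of SGCF. In 6TCF it had 8.94 and 9.15, 9.65 and 9.37, and 9.88 and 9.83 at days 0, 5 and 10. Day 10 lies below both earlier days in SGCF and above both in 6TCF, with no overlap of the arrays in either arm. It fell by 0.87 in SGCF by day 10 (SE 0.18, adjusted p = 0.00248) and rose by 0.80 in 6TCF (SE 0.18, adjusted p = 0.00347), and the fall in SGCF came after day 5 (log2 change -0.91, adjusted p = 0.00352, limma). The difference between the arms' changes by day 10 was -1.67 (SE 0.25, adjusted p = 0.000957).
The arms differed in Rpl39l already at day 0, where it was 2.41-fold higher in SGCF than in 6TCF at day 0 (log2 1.27, SE 0.18, adjusted p = 0.00123). With the 4 day 0 arrays of both arms taken as a single group, the changes by day 10 were -0.23 in SGCF (adjusted p = 0.663) and 0.17 in 6TCF (adjusted p = 0.747). In that fit the day 0 terms of the difference between the arms cancel, so only the day 10 levels are compared. This gap was -0.40 (adjusted p = 0.54, limma), and none of these values was called. That fit counts the day 0 gap between the arms as spread, so it cannot show whether the calls hold. The fall after day 5 of SGCF, which uses no day 0 array, stayed at -0.91 in it (adjusted p = 0.177, limma). Of the 22 cell cycle markers, 13 were lower at day 5 and 22 at day 10 of SGCF, while Rpl39l gave 0.04 at day 5 of SGCF (adjusted p = 0.898) and fell by day 10. In 6TCF 1 was lower at day 5 and 10 were lower at day 10, with none higher, while Rpl39l rose by day 10. Of all genes, 25.4% and 38.6% were called in either direction at days 5 and 10 of SGCF, and 27.6% and 43.1% in 6TCF. The count of these markers at day 10 of 6TCF is near that share. The part of the cell cycle markers in the change of Rpl39l was not tested.

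Rpl22l1, a paralog of Rpl22 of the large subunit, had a similar shape. Its level in SGCF was 12.80 and 13.17 at day 0, 13.15 and 13.12 at day 5 and 12.76 and 12.83 at day 10. In 6TCF it was 12.32 and 12.31, 12.53 and 12.89, and 13.21 and 13.13 at days 0, 5 and 10. The 6TCF arrays lie higher on each later day without overlap, while the SGCF arrays of days 0 and 10 overlap. It rose by 0.86 by day 10 of 6TCF (SE 0.15, 1.81-fold, adjusted p = 0.000683, limma) and gave -0.19 by day 10 of SGCF (SE 0.15, adjusted p = 0.339), and the changes of the arms differed by -1.05 (SE 0.21, adjusted p = 0.00485). At day 0 it was 0.67 higher in SGCF (SE 0.15, adjusted p = 0.0125), a call lost without any of 3 day 0 arrays: replicate 2 of SGCF (0.49, adjusted p = 0.0751), replicate 1 of 6TCF (0.68, adjusted p = 0.0767) or replicate 2 of 6TCF (0.67, adjusted p = 0.0889). With the day 0 arrays of both arms pooled, the change in 6TCF was 0.52 (adjusted p = 0.0789, limma). The difference between the arms then compares the day 10 levels only, and was -0.38 (adjusted p = 0.324). That fit again counts the day 0 gap as spread.

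Rps4l, a relative of the small subunit gene Rps4x by its name and a transcribed pseudogene in RefSeq, was higher in both arms. It had 10.58 and 10.59 at day 0, 11.04 and 11.00 at day 5 and 10.88 and 10.82 at day 10 of SGCF. In 6TCF it had 10.67 and 10.69, 11.22 and 11.24, and 11.28 and 11.22 at days 0, 5 and 10. Both later days lie above day 0 on every array of both arms. The rise by day 5 was 0.44 in SGCF (SE 0.10, adjusted p = 0.0092) and 0.55 in 6TCF (SE 0.10, adjusted p = 0.00205), and by day 10 it was 0.57 in 6TCF (adjusted p = 0.000988, limma). The change of 0.27 by day 10 of SGCF did not pass the test (adjusted p = 0.0636). The difference between the arms' changes of -0.30 did not either (adjusted p = 0.156, interval -0.63 to 0.02). With the day 0 arrays of both arms pooled, the day 0 terms cancel and only the day 10 levels are compared. That gap was -0.40 and passed (adjusted p = 0.0362, limma). The call at day 5 of SGCF was lost without replicate 1 of that group (0.41, adjusted p = 0.0595).
Rpl7l1 is a nucleolar Rpl7-like protein that takes part in large subunit assembly and is not a subunit of the mature ribosome. By its brightest probe set it was lower at day 5 of 6TCF than on the days around it. It had 10.28 and 10.32, 10.12 and 10.08, and 10.08 and 10.04 at days 0, 5 and 10 of SGCF, and 10.07 and 10.03, 9.72 and 9.60, and 10.07 and 10.13 at days 0, 5 and 10 of 6TCF. The day 5 arrays of 6TCF are the lowest of the 12. The fall by day 5 of 6TCF was -0.39 (SE 0.11, adjusted p = 0.0173) and the rise after it 0.44 (SE 0.11, adjusted p = 0.0189). The call of the fall was lost without replicate 1 or 2 of 6TCF at day 0 or replicate 2 at day 5 (-0.33 to -0.42, with adjusted p of 0.0807 to 0.113). The call of the rise was lost without any of the 4 arrays of days 5 and 10 of 6TCF (0.38 to 0.50). Another probe set of Rpl7l1 (1426386_at) gave -0.21 at day 5 of 6TCF (adjusted p = 0.269) and 0.33 after it (adjusted p = 0.113), neither called. By day 10 of SGCF that probe set fell by 0.48 (adjusted p = 0.0133, limma). The brightest gave -0.24 there (adjusted p = 0.0987), and the mean of the probe sets -0.36 (adjusted p = 0.0155).
Rps27l, a paralog of Rps27 and a known p53 target, was called in none of the 9 comparisons (log2 changes -0.22 to 0.17). Rpl3l was not called either, and its level of 4.86 to 5.32 lies close to the filter on low values at 5.27, so little can be read from it.

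**Figure D3:**
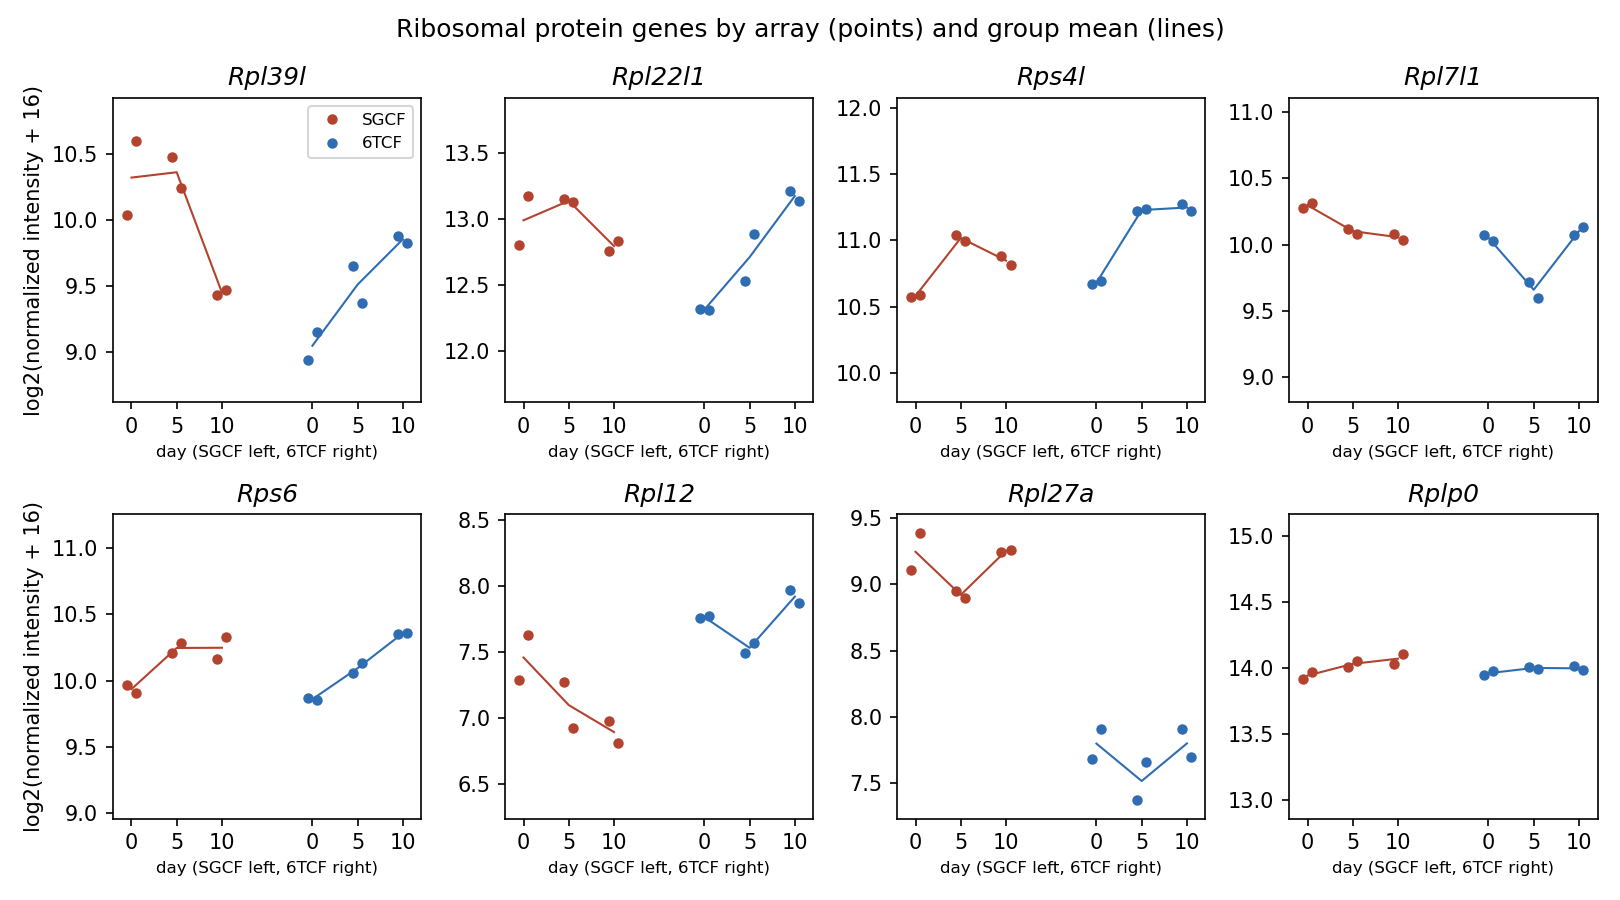
Log2(normalized intensity + 16) of 8 genes on each array (points) with group means (lines), by day, SGCF at the left and 6TCF at the right of each panel; each panel spans the same height. Rpl39l ends below its day 0 arrays in SGCF, Rpl39l and Rpl22l1 end above their day 0 arrays in 6TCF, Rpl27a lies in separate ranges for the arms on all 3 days, and Rplp0 stays between 13.92 and 14.11.

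Of the subunit genes, 5 were called in some comparison: Rps6, Rps27, Rps19, Rpl12 and Rpl27a. Rps27 and Rps19 fell outside the rule for naming genes and were named after their values were seen. For 4 of the 5, Rps19 being the exception, the probe set used lies below the 98th percentile of signal.
Rps6 is the small subunit protein that S6 kinase phosphorylates downstream of mTOR. It had 9.97 and 9.90, 10.21 and 10.29, and 10.16 and 10.33 at days 0, 5 and 10 of SGCF, and 9.87 and 9.85, 10.06 and 10.13, and 10.35 and 10.36 at days 0, 5 and 10 of 6TCF. The arrays of days 5 and 10 lie above those of day 0 in both arms. It rose by 0.31 by day 10 of SGCF (SE 0.11, adjusted p = 0.044) and by 0.50 by day 10 of 6TCF (SE 0.11, 1.41-fold, adjusted p = 0.00354, limma). The call in SGCF was lost under median scaling (0.21, adjusted p = 0.191) and under 11 of the 20 alternatives in all, with adjusted p up to 0.253.
Rps6 is also named on 9 probe sets that carry further symbols, with mean levels from 5.13 to 14.1. The brightest of them thus lies well above the probe set used. These 9 changed by 0.01 to 0.43 by day 10 of SGCF and by -0.05 to 0.05 by day 10 of 6TCF, with none called. A second probe set of Rps6 alone (1453466_at), chosen after its values were seen, went further: 5.20 and 5.23, 6.42 and 6.59, and 7.06 and 6.96 at days 0, 5 and 10 of SGCF, and 5.72 and 5.71, 6.23 and 6.07, and 6.66 and 6.79 at days 0, 5 and 10 of 6TCF. Its change by day 10 was 1.80 (SE 0.12, adjusted p = 6.77e-07) in SGCF and 1.01 (SE 0.12, adjusted p = 5.29e-05) in 6TCF in a limma fit of all probe sets. The probe sets of Rps6 thus move by unequal amounts, and which transcripts each measures was not tested.
Rps27, a zinc-binding small subunit protein, had 7.19 and 7.23, 7.48 and 7.06, and 7.41 and 7.43 at days 0, 5 and 10 of SGCF, and 7.25 and 7.20, 7.41 and 7.40, and 7.82 and 7.58 at days 0, 5 and 10 of 6TCF. Day 10 lies above day 0 in both arms, and the change passed the test in 6TCF (0.48, SE 0.14, adjusted p = 0.0187) and not in SGCF (0.21, SE 0.14, adjusted p = 0.276). A brighter probe set that names Rps27 together with another symbol was called in both arms, with 0.37 by day 10 of SGCF and 0.65 by day 10 of 6TCF. Rps19, mutated in Diamond-Blackfan anaemia in human, had 13.62 and 13.68, 13.81 and 13.82, and 13.87 and 13.88 at days 0, 5 and 10 of SGCF, and 13.57 and 13.57, 13.85 and 13.83, and 13.98 and 13.85 at days 0, 5 and 10 of 6TCF. Both later days lie above day 0 in both arms. Its change by day 10 was 0.23 in SGCF (adjusted p = 0.113) and 0.35 in 6TCF (SE 0.11, adjusted p = 0.0204). In SGCF it was called at day 10 under median scaling (0.42, adjusted p = 0.0215) and cyclic loess (0.49, adjusted p = 0.0031), and at day 5 under median scaling (0.52, adjusted p = 0.0111). The calls of Rps27 and Rps19 in 6TCF were each lost without any of 3 arrays: replicate 1 or 2 at day 0, or replicate 1 at day 10 (0.36 to 0.50 and 0.28 to 0.35, with adjusted p of 0.066 to 0.158).
Rpl12, a protein of the base of the stalk, moved the other way. Its level was 7.29 and 7.63, 7.28 and 6.93, and 6.98 and 6.81 at days 0, 5 and 10 of SGCF, and 7.76 and 7.77, 7.50 and 7.57, and 7.97 and 7.87 at days 0, 5 and 10 of 6TCF. Day 10 lies below day 0 in SGCF and above it in 6TCF, with no overlap. It fell by 0.56 by day 10 of SGCF (SE 0.15, adjusted p = 0.0111), gave 0.16 in 6TCF (adjusted p = 0.438), and the arms differed by -0.72 (SE 0.21, adjusted p = 0.0293, limma). The fall was lost without replicate 2 of SGCF at day 0 (-0.40, adjusted p = 0.0808) or at day 10 (-0.48, adjusted p = 0.0808), and the difference was lost without any of 6 arrays (adjusted p up to 0.101). A pair of bright probe sets naming Rpl12 with other symbols changed by 0.00 to 0.11 in SGCF and by 0.15 to 0.20 in 6TCF, and neither was called.
Rpl27a differed between the arms and was called over time in neither. It had 9.11 and 9.39, 8.95 and 8.89, and 9.25 and 9.26 at days 0, 5 and 10 of SGCF, against 7.68 and 7.91, 7.37 and 7.65, and 7.90 and 7.69 at the same days of 6TCF. Every SGCF array lies above every 6TCF array, by 2.73-fold between the day 0 means (log2 1.45, SE 0.15, adjusted p = 0.000181), while the changes by day 10 were 0.01 in SGCF and 0.00 in 6TCF. The brighter probe set that names Rpl27a with another symbol differed by 0.01 between the arms at day 0. The call therefore rests on a single probe set, and what it binds was not tested.

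When the arms were set against each other, 4 of the 48 genes were called in some comparison. At day 0, 3 of the 48 were higher in SGCF (Rpl27a, Rpl39l and Rpl22l1) and none lower, against 17.1% of all genes called and 8.52% higher. The difference between the arms' changes by day 5 was called for none of the 48, against 8.82% of all genes. At an unadjusted p under 0.05, 1 of the 48 passed for this difference, against 23.2% of all genes. By day 10 it was called for 3, all more negative in SGCF (Rpl39l, Rpl22l1 and Rpl12), against 25.4% of all genes called and 13.3% more negative in SGCF. The median difference by day 10 was -0.11, with 32 of 48 below 0, and among the 42 subunit genes it was -0.08.
Probe sets other than the brightest of a gene gave further changes, all singled out after their values were seen. A probe set of Rpl22 (1448398_s_at), whose brightest probe set changed by 0.09 and 0.17, gave 1.14 by day 10 of SGCF (SE 0.14, adjusted p = 8.76e-05) and 1.12 by day 10 of 6TCF (SE 0.14, adjusted p = 9.2e-05). Its level was 9.16 and 9.31, 9.82 and 9.94, and 10.44 and 10.32 at days 0, 5 and 10 of SGCF, and 8.63 and 8.74, 9.10 and 9.44, and 9.90 and 9.71 at days 0, 5 and 10 of 6TCF, so that each later day lies above the earlier ones without overlap in both arms. Rps24, by a probe set (1455195_at) well below its brightest in signal, had 7.71 and 8.18, 7.02 and 6.97, and 6.52 and 6.57 at days 0, 5 and 10 of SGCF, and 8.22 and 8.21, 7.98 and 7.99, and 8.43 and 8.15 at days 0, 5 and 10 of 6TCF. It fell by 1.40 in SGCF by day 10 (SE 0.15, adjusted p = 3.32e-05) and gave 0.08 in 6TCF (adjusted p = 0.733), a difference of -1.48 (SE 0.22, adjusted p = 0.00108). The probe set 1426958_at of Rps9 likewise fell by 0.96 in SGCF (SE 0.12, adjusted p = 0.000107) and gave 0.01 in 6TCF (adjusted p = 0.956). The brightest probe sets of Rps24 and Rps9 changed by -0.03 and 0.10 in SGCF. Rps24 and Rpl22 mRNAs are known to be made in several forms, and which form each probe set measures was not tested here.
Over all 95 single-symbol probe sets of the members that passed the filter, 2 were higher and 6 lower at day 10 of SGCF, and 15 were higher and none lower at day 10 of 6TCF. Of the 99 tested probe sets that name a ribosomal protein gene together with other symbols, 4 were higher and 1 lower in SGCF and 13 were higher and 1 lower in 6TCF. Among all 18625 probe sets tested, 17.4% were higher and 18% lower in SGCF and 19.6% were higher and 21.2% lower in 6TCF.

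The size of the shift that these genes share depends on the scaling of the arrays. Under median scaling in place of quantile normalization the median change of the 48 genes was 0.32 and 0.16 at days 5 and 10 of SGCF and 0.09 and 0.23 at days 5 and 10 of 6TCF; under cyclic loess it was 0.10 and 0.23 in SGCF and 0.11 and 0.15 in 6TCF. It was above 0 in all of these. In the change between days 5 and 10 of SGCF it flipped (0.00 by quantile normalization, -0.16 by median scaling, 0.11 by cyclic loess). The difference between the arms' changes flipped too, by day 5 (-0.03 by quantile normalization, 0.22 by median scaling and -0.01 by cyclic loess) and by day 10 (-0.11, -0.11 and 0.04). On the deposited values, without any scaling, the probe sets of the 48 genes made up 3.89% and 3.91%, 4.71% and 4.45%, and 4.63% and 4.44% of the summed intensity of an array at days 0, 5 and 10 of SGCF. In 6TCF they made up 3.43% and 3.37%, 3.92% and 3.77%, and 4.03% and 3.91%. In both arms the later days lie above day 0 on every array. Quantile normalization gives every array the same distribution of values, so a shift shared by most of the brightest probe sets is reduced by its construction.

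**Figure D4:**
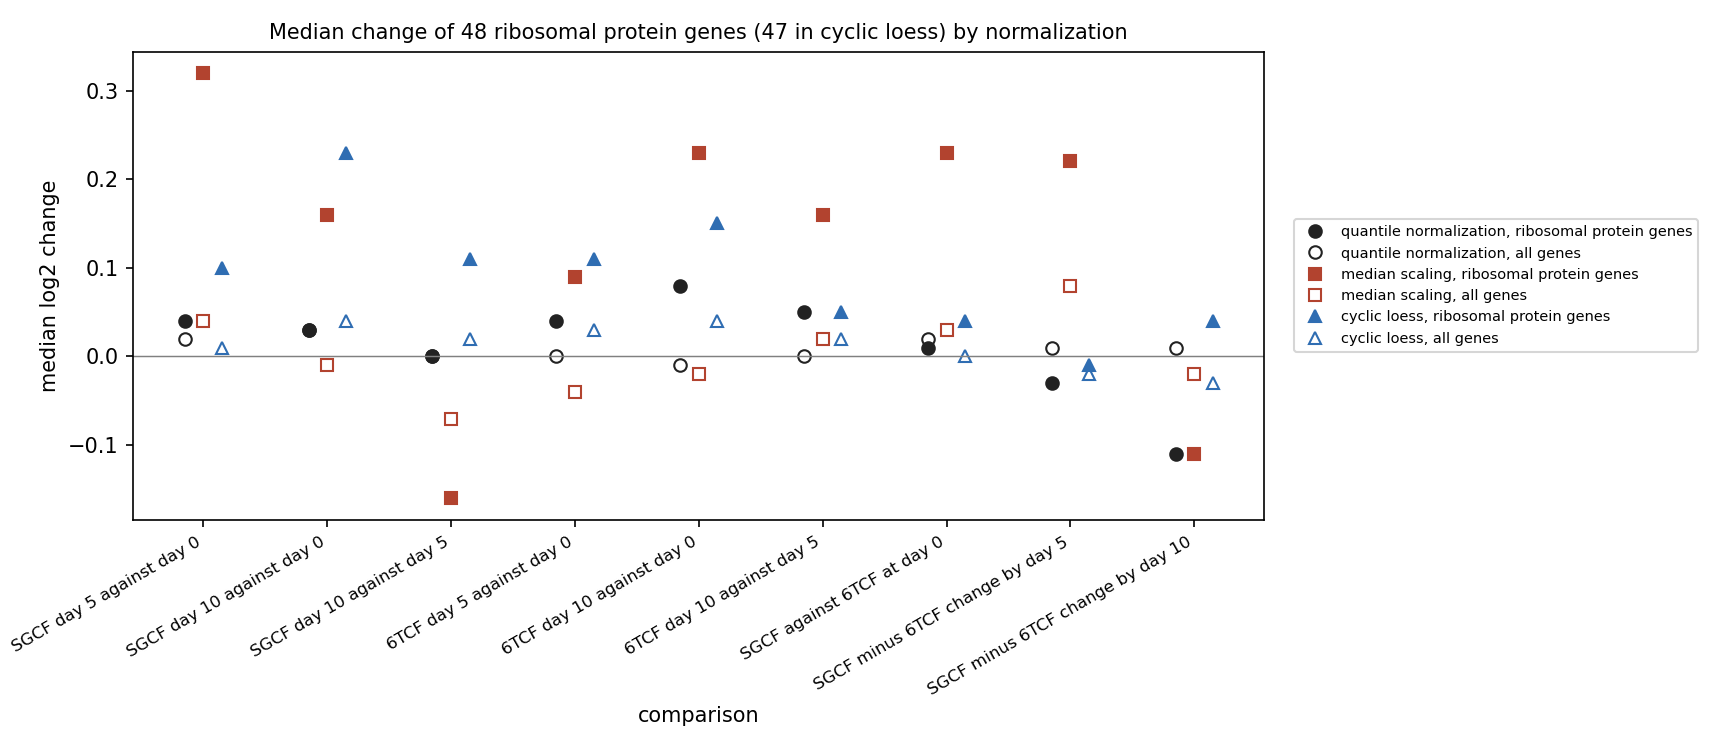
Median log2 change of the 48 genes (filled) and of all genes tested (open) in the 9 comparisons under 3 normalizations, with 47 of the 48 genes passing the filter under cyclic loess. Filled points spread from -0.16 to 0.32 over the normalizations, while open points stay within 0.079 of 0.

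Other genes of ribosome production are given here as counts called at day 10 against day 0, to be read beside the 38.6% of all genes called in SGCF and the 43.1% called in 6TCF. The lists were written with earlier results of these data known. Of 64 tested genes of ribosome assembly and RNA polymerase I, 2 were higher and 33 lower at day 10 of SGCF (median -0.42), and 7 were higher and 22 lower at day 10 of 6TCF (median -0.26), against medians of 0.03 and -0.01 for all genes. The count in 6TCF is near the share of all genes. Rrp12, an assembly factor of both subunits, fell by 1.04 in SGCF (SE 0.14, adjusted p = 0.000114) and by 1.27 in 6TCF (SE 0.14, adjusted p = 2.16e-05). Nop56, a core protein of box C/D small nucleolar particles, fell by 1.12 in SGCF (adjusted p = 0.000175) and gave -0.32 in 6TCF (adjusted p = 0.128). Ddx21, a nucleolar helicase, fell by 0.96 in SGCF and by 1.25 in 6TCF, while Taf1c, a subunit of the polymerase I factor SL1, rose by 0.78 and 0.60.
Mitochondrial ribosomal protein genes, whose products form a separate ribosome, differed between the arms. Of 74 tested, 4 were higher and 16 lower at day 10 of SGCF (median -0.17), and 29 were higher and 1 lower at day 10 of 6TCF (median 0.29). The share called in either direction lies below that of all genes in SGCF (38.6%) and near it in 6TCF (43.1%). The difference between the arms by day 10 was negative and called for 29 of the 74 (13.3% of all genes), and 21 were higher in SGCF at day 0 (8.52% of all genes).
Among 33 tested translation factors and other genes whose mRNAs carry a terminal oligopyrimidine tract, 5 were higher and 5 lower in SGCF and 5 were higher and 7 lower in 6TCF, below the shares of all genes called (38.6% and 43.1%). Eef2, the translocation factor of elongation, rose by 0.74 in SGCF (adjusted p = 0.00735) and gave -0.17 in 6TCF (adjusted p = 0.493), and Eif4b, a cofactor of the initiation helicase, rose by 0.71 in SGCF (adjusted p = 0.00215) and gave 0.05 in 6TCF. Eif3a, a core subunit of initiation factor 3, gave -0.03 in SGCF and fell by 1.04 in 6TCF (adjusted p = 0.00118). Fau, a small subunit protein gene that the symbol rule leaves out, gave 0.29 in SGCF (adjusted p = 0.0531) and rose by 0.39 in 6TCF (adjusted p = 0.0126).
Of 29 tested regulators of these genes, 8 were higher and 7 lower in SGCF (38.6% of all genes called) and 4 were higher and 10 lower in 6TCF (43.1% of all genes called). Myc, a transcription factor that drives ribosome production, fell by 1.35 in SGCF (adjusted p = 1.21e-05) and by 1.22 in 6TCF (adjusted p = 2.54e-05). Sesn3, a stress-induced inhibitor of mTOR complex 1, rose by 1.92 in SGCF (adjusted p = 5.79e-06) and by 1.97 in 6TCF (adjusted p = 4.25e-06, limma). Larp1 gave -0.17 in SGCF (adjusted p = 0.478) and fell by 1.16 in 6TCF (adjusted p = 0.000284), and the arms differed by 0.98 (adjusted p = 0.0162).

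**Figure D5:**
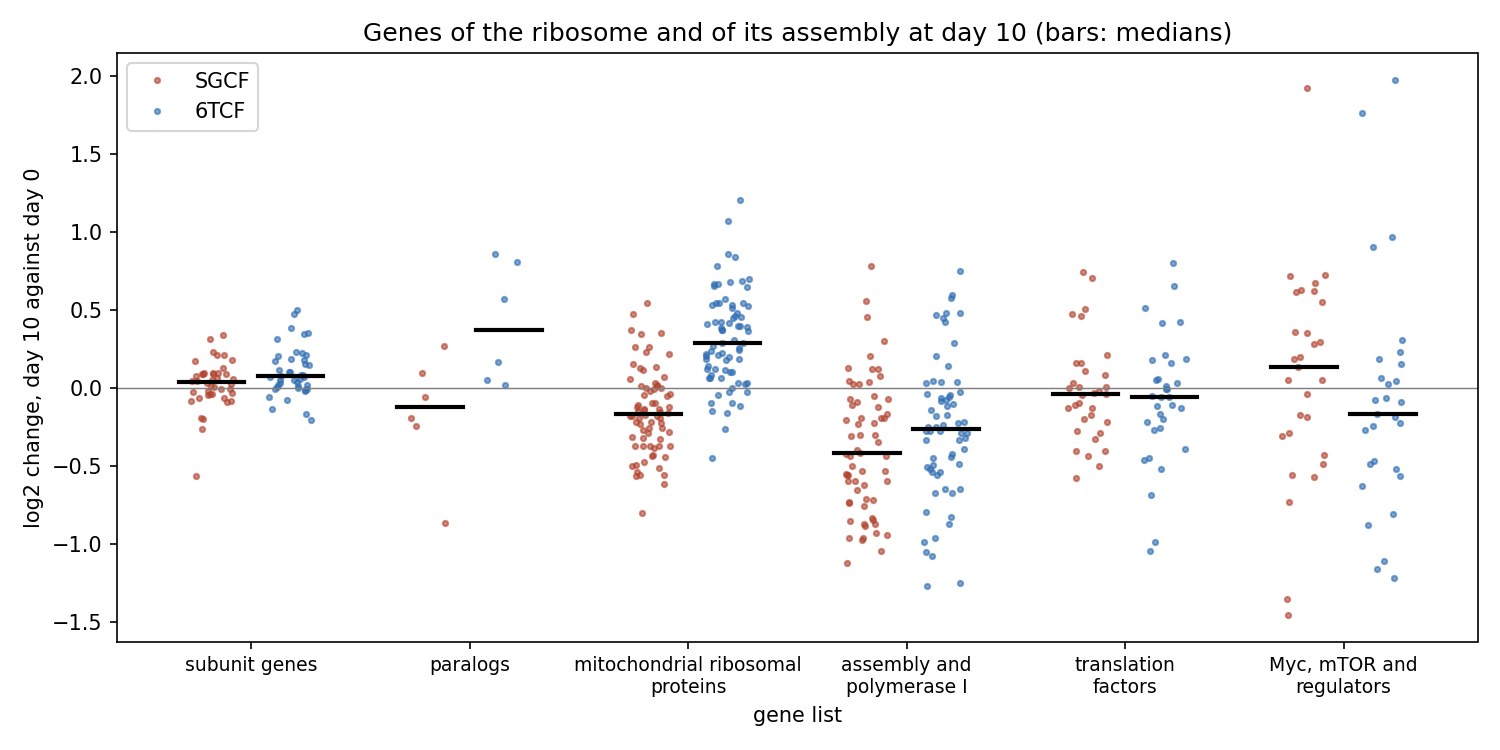
Log2 change at day 10 against day 0 for each gene (points) of 6 lists, SGCF left of 6TCF, with medians as bars. The 42 subunit genes lie close around 0, the assembly list lies mostly below 0 in both arms, and the mitochondrial ribosomal proteins lie mostly below 0 in SGCF and above 0 in 6TCF.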

How the data were processed

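The 48 genes were followed on 12 Affymetrix Mouse Genome 430A 2.0 arrays. The authors deposited a linear intensity for each probe set. RMA, limma and MAS5 appear in the submitters' processing notes without roles or versions, so the step that made the deposited intensity is not known here. The number of arrays limits the precision, and a count-based depth does not apply.

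Gene names come from the platform annotation: of 22690 probe sets, 20380 had 1 symbol, 691 several and 1555 none. The 64 control probe sets were left out. Values were quantile normalized, 16 was added and log2 taken. Genes were represented by their probe set of highest mean and kept if the highest group mean exceeded the 25th percentile (log2 5.27). limma 3.58.1 in R 4.3.3 (lmFit and eBayes, 6 group means, 6 residual and 5.53 prior degrees of freedom) was run on 10674 genes, with Benjamini-Hochberg adjustment over all of them in each of 9 comparisons. The fit was tested on simulated data. All groups of arrays were used, and no array or column was left out.

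The members, gene lists and tests were chosen with earlier results of these data known. Named genes were the paralogs, the stalk and laminin receptor members, the 4 largest called rises and falls per comparison, and the 2 largest of each list. Alternatives were median scaling, cyclic loess, a pseudocount of 1, no filter, the mean of a gene's probe sets, no _x_at or _s_at probe sets, the replicate block, pooled day 0 arrays and leaving out each array.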

Additional observations from a re-analysis of the deposited data

Results flagged for a closer look

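The values below were picked out because the change over time differed between the arms by a test of that difference (limma, adjusted over all genes or all probe sets tested). The values are the SGCF change minus the 6TCF change, on the log2 scale. Every group has 2 arrays, too few for a test of outlying arrays.

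By day 10 the difference was -1.67 for Rpl39l, -1.05 for Rpl22l1 and -0.72 for Rpl12. For other probe sets of members it was -0.60 for 1426386_at of Rpl7l1, -1.48 for 1455195_at of Rps24, -0.63 for 1420303_x_at of Rps4x, 0.79 for 1453466_at of Rps6 and -0.97 for 1426958_at of Rps9. By day 5 it was 0.85 for 1453466_at of Rps6 and -0.82 for 1426958_at of Rps9. Array brightness and, at day 0, macrophage and cell cycle marker levels also differed between the arms, and their part was not tested.

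Among translation factors the difference by day 10 was 1.01 for Eif3a, 0.91 for Eef2 and 0.65 for Eif4b. Among assembly and polymerase I genes it was -0.62 for Polr1c and -0.80 for Nop56. Among regulators it was -1.15 for Sesn1, 0.98 for Larp1 and -0.65 for Mycl by day 10, and -1.14 for Sesn3, -1.01 for Sesn1 and -1.06 for Mycl by day 5.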

How the results depend on the processing

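Of 2855 values under alternative settings, 2716 kept their direction and their side of the threshold (or stayed within 1.5 times or the replicate spread). No called value reversed. The cause of the moves below was not tested, and shares of all genes called under these settings are not given here. Median scaling gave median changes of 0.32, 0.16 and -0.16 for SGCF at day 5, day 10 and day 10 against day 5, 0.09, 0.23 and 0.16 for 6TCF, 0.23 between the arms at day 0 and 0.22 for the difference by day 5, with 10, 6 and 3 members called in SGCF and 3 in 6TCF for day 10 against day 5. Cyclic loess gave medians of 0.10, 0.23 and 0.11 in SGCF, 0.11 and 0.15 at days 5 and 10 of 6TCF, 0.04 at day 0 and 0.04 for the difference by day 10, with 11 members called at day 10 of SGCF and 3 for day 10 against day 5 of 6TCF. The mean of all probe sets called 4, 6 and 2 members in SGCF, 4, 10 and 4 in 6TCF and 5 in the difference by day 10, with a median of 0.01 for the difference by day 5. Without _x_at and _s_at probe sets, 4, 5 and 2 were called in SGCF (median 0.00 at day 10), 1 in the difference by day 5 and 5 by day 10, with 43 members tested. A pseudocount of 1 called 2 for day 10 against day 5 of SGCF. With the day 0 arrays pooled, 3 were called at day 5 of SGCF and 0 for day 10 against day 5 in either arm. That fit counts differences between the arms at day 0 as spread, and its difference between the arms by day 10 compares day 10 levels only. Leaving out each array in turn gave 0 to 2, 1 to 4 and 1 to 3 members called in SGCF, 1 to 4, 4 to 7 and 0 to 2 in 6TCF, 2 to 3 at day 0, and 0 to 1 and 2 to 4 for the differences by days 5 and 10, with medians of -0.05 to 0.01 and -0.14 to -0.06 for these differences. The replicate block called 1, 2 and 1 members in SGCF, 2, 6 and 1 in 6TCF, 3 at day 0, and 0 and 3 for the differences; it ended the call of Rps6 at day 10 of SGCF (adjusted p = 0.0564) and no other. Same-numbered arrays did not deviate together (correlations of deviations -0.273 to 0.109 over 15 pairs of groups). No pairing by number was thus visible, which does not show that these arrays are of separate origin. With 2 arrays a group the median standard error of a log2 change was 0.11, which limits what can be seen of changes under about 0.5.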
